A study of Mus musculus with 4 samples.

Results

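Wnt ligands and the R-spondin receptor system were followed through the cells of the mouse distal jejunum, the lower middle part of the small intestine, by 9 genes: Wnt2b, Wnt3, Wnt4 and Wnt5a, Rspo1 and Rspo2, Lgr4, Znrf3 and Rnf43. They were taken by symbol and are 9 of 32286 counted features. A further 74 genes of the pathway, Rspo3 and Lgr5 among them, served as context. Single cells came from 4 adult male mice, each 1 library, collected 18.5 h after ischemia/reperfusion (I/R) surgery of the small intestine. The 2 Control mice were Foxc1fl/fl;Foxc2fl/fl, and the 2 EC-Foxc-DKO mice also carried Cdh5-CreERT2, a tamoxifen-inducible Cre driven by an endothelial promoter. Both floxed alleles were thus present in every mouse, and by the study's methods adult mice were given tamoxifen. There was no sham group, so no value can be set against uninjured intestine.

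Wnt ligands bind Frizzled receptors together with LRP co-receptors and stabilize β-catenin, which keeps the stem cells at the base of the intestinal crypts dividing. The membrane ubiquitin ligases Rnf43 and Znrf3 remove Frizzled receptors from the cell surface, and R-spondins, bound to Lgr receptors, take these ligases away and so raise the Wnt signal. In the small intestine, Paneth cells of the crypt and mesenchymal cells beneath the epithelium are known sources of Wnt ligands.

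Of 22679 barcodes, 5615 (24.8%) passed the limit on mitochondrial RNA: 1446 and 348 cells of Control mice 1 and 2, and 2742 and 1079 of EC-Foxc-DKO mice 1 and 2. Their median number of UMIs (unique molecular identifiers, 1 per captured RNA molecule) ran from 4254.5 to 19871 per mouse. The cells were named from marker genes into 22 types, each name standing for cells like that type, with 189 cells left unnamed, and 2 barcodes occurred among the kept cells of more than 1 library. Cells that matched the study's fibroblast markers carried 5 of 5 markers of enteric glia and are called so here. Enteroendocrine cells are those of the study's first such marker list, and the 273 cells that matched its second list carried 6 of 6 epithelial and 0 of 4 enteroendocrine markers and are named by their genes Sprr2a3 and Gml2. The 9 cells called mesothelial carried 4 of 4 mesothelial markers (Msln, Upk3b, Krt19 and Lrrn4) besides 4 of 5 general mesenchymal ones. Crypt cells carried 4 of 5 stem cell markers and 4 of 4 markers of division, whereas Lgr5 itself did not pass the marker rule there. In endothelial cells, Foxc1 had 2, 9, 1 and 0 UMIs in Control 1, Control 2, EC-Foxc-DKO 1 and EC-Foxc-DKO 2, and Cre had 0, 0, 3 and 2. Foxc2 had none in any mouse, so the deletion could be checked only on Foxc1, from these few UMIs.

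**Figure D1:**
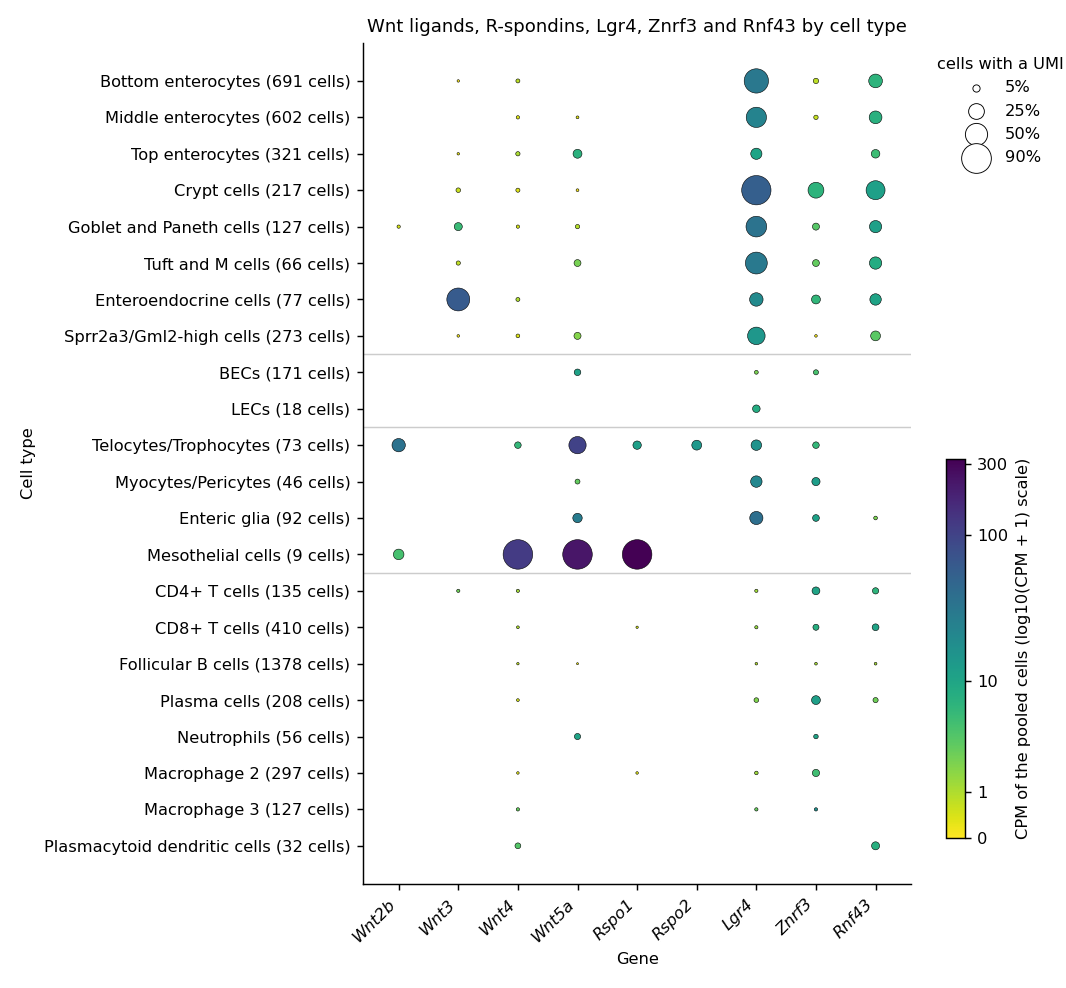
Each row is a cell type and each column a gene; the area of a dot is the share of cells with at least 1 UMI, and its colour the level in the pooled cells of all 4 mice, in counts per 1000000 UMIs of the type (CPM, log10(CPM + 1) scale). The ligand columns are filled mostly in telocytes/trophocytes and mesothelial cells, with Wnt3 in enteroendocrine cells, while Lgr4 and Rnf43 fill the epithelial rows. Dot areas are not corrected for depth, which differed between cell types.

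By their UMIs the genes divided between compartments, with the ligands in few cells and the receptor side in many. Shares of cells with a UMI also depend on depth. Stromal cells were 3.92% of the cells and held 95% of the 20 UMIs of Wnt2b, 61.8% of the 191 of Wnt5a, 97.5% of the 80 of Rspo1 and all 7 of Rspo2. Epithelial cells, 42.3% of the cells and 80.4% of all UMIs, held 97.7% of the 86 UMIs of Wnt3, 97.1% of the 2115 of Lgr4, 91.9% of the 553 of Rnf43 and 57.2% of the 215 of Znrf3. Wnt4, with 79 UMIs, had 49.4% of them in epithelial cells, but spread at 0.564 CPM against 19.1 CPM in stromal cells. Such shares follow how much RNA each compartment gave: with compartments weighted equally by mean CPM, the epithelial share was 89.6% for Wnt3, 42.8% for Lgr4, 34.1% for Rnf43, 8.90% for Znrf3 and 2.87% for Wnt4, and the stromal share of Wnt5a was 87.7%. The unnamed cells count as a compartment there, with 47.9% of Rnf43 from 6 UMIs, 14.8% of Znrf3 from 1 UMI and 13.6% of Lgr4 from 8. By the same weighting stromal cells had 38.7% of Lgr4, at a mean of 29.2 CPM against 32.3 CPM in epithelial cells. With the mitochondrial limit at 20%, the stromal share of Wnt5a UMIs was 42.6%. Endothelial cells, the target of the deletion, held none of the UMIs of Wnt2b, Wnt3, Wnt4, Rspo1 or Rspo2. These zeros allow a share of up to 1.75% of the 171 blood endothelial cells. For the 18 lymphatic endothelial cells, none of them from EC-Foxc-DKO 2, they allow up to 16.7%. Of the UMIs of Rspo3, endothelial cells held 22.7%. As a measure of free RNA, among 1378 follicular B cells (median 3246.5 UMIs) no cell had a UMI of Wnt2b, Wnt3, Rspo1 or Rspo2, which allows a share of up to 0.218%, and 1 to 6 cells had one of each of the other genes. Of these B cells, 1204 came from EC-Foxc-DKO 1, so the background is mainly that of 1 library, and in EC-Foxc-DKO 2 Rnf43 had 2 UMIs in 34 B cells (19.7 CPM). Cell types are clusters of these same cells, so levels are compared between them without a test. CPM values compare a gene between cell types, and, with 3′ libraries, genes are not compared with each other by level.

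Wnt3 (chr11:103774150-103817957, GRCm38, plus strand), the β-catenin-activating ligand known from Paneth cells, had most of its UMIs in enteroendocrine cells, the hormone-secreting cells of the epithelium. In pooled cells its level was higher in 10 Paneth-like cells, but from 7 UMIs, as described below. Its level in enteroendocrine cells was 70.9 CPM in Control 1, 97.1 in Control 2, 46.9 in EC-Foxc-DKO 1 and 57.0 in EC-Foxc-DKO 2 (mean 68.0 ± 21.8, SD, n = 4 mice). All 4 mice showed it, with the value of Control 2 resting on 7 UMIs in 5 cells. Of 77 enteroendocrine cells, 41 had a UMI (53.2%, exact 95% binomial interval 41.5 to 64.7%, which covers counting error only), and no single cell held more than 3 of the 60 UMIs. After thinning every cell to 1000 UMIs the share was 6.74%.

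Goblet and Paneth cells, which formed 1 cluster, came next for Wnt3 among mice with at least 10 cells of a type, with 6.61, 33.1, 2.65 and 5.25 CPM in the same order of mice, where Control 2 had 4 such cells. Over all mice, CD4+ T cells averaged 34.9 CPM, from 2 UMIs in 1 cell of Control 1. Among mice with at least 10 cells of each type, the ranges of enteroendocrine cells and of goblet and Paneth cells did not overlap. Within that cluster, the 10 cells in which the Paneth markers outweighed the goblet markers held 7 UMIs of Wnt3 (117 CPM in the pooled cells, against 62.4 CPM in pooled enteroendocrine cells), and the 117 others held 5 (2.32 CPM). Those 10 cells came from 3 mice, 7 of them from EC-Foxc-DKO 2, and 2 cells of the cluster lay within 2-fold of equal marker sums. By mouse they had 0 CPM in Control 1 (2 cells), 158 CPM in Control 2 (2 UMIs in 1 cell) and 114 CPM in EC-Foxc-DKO 2 (5 UMIs). Whether their level exceeds that of enteroendocrine cells is thus not settled. Of the 86 Wnt3 UMIs, enteroendocrine cells thus held 60 (69.8%) and the 10 Paneth-like cells 7. Crypt cells had 0.576, 1.94 and 1.85 CPM of Wnt3 in Control 1, Control 2 and EC-Foxc-DKO 1, and no UMI in 144 cells of EC-Foxc-DKO 2, which allows up to 0.486 CPM.

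Wnt2b (chr3:104945272-104961921, minus strand), a β-catenin-activating ligand of the mesenchyme, was found almost solely in telocytes/trophocytes, the Pdgfra-expressing stromal cells that surround the crypts. These cells were very unevenly captured, with 2, 29, 41 and 1 cells in Control 1, Control 2, EC-Foxc-DKO 1 and EC-Foxc-DKO 2. Wnt2b reached 59.8 CPM in Control 2 (12 UMIs in 8 cells) and 20.2 CPM in EC-Foxc-DKO 1 (6 UMIs in 5 cells). It had no UMI in the 3 cells of the remaining mice, where a count of 0 allows up to 612 and 403 CPM and is thus uninformative. Rspo3 had 58.6% of its UMIs in telocytes/trophocytes, 22.7% in lymphatic endothelial cells and 18.75% in myocytes/pericytes. In lymphatic endothelial cells it stood at 184, 350 and 83.4 CPM in Control 1, Control 2 and EC-Foxc-DKO 1, in 12 of 18 cells. Within telocytes/trophocytes, Rspo3 was detected in 10 of the 13 cells with Wnt2b, where the product of both shares gives 6.59 cells. Other pairs went both ways. Wnt5a and Rspo3 were together in 9 cells against a product of 11.2, and Wnt2b and Wnt4 in 0 against 0.534. Wnt4 and Wnt5a were together in 3 cells against 0.904. These counts pool the mice and are not corrected for depth, so they are a description.

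Wnt5a (chr14:28504750-28527448, plus strand), a ligand known mainly for signalling without β-catenin, had several stromal sources. In telocytes/trophocytes it stood at 1021 CPM in Control 1, from 5 UMIs in 2 cells, at 120 CPM in Control 2 (24 UMIs in 11 cells) and at 77.4 CPM in EC-Foxc-DKO 1 (23 UMIs in 9 cells), with no UMI in the single cell of EC-Foxc-DKO 2. The first value rests on 2 shallow cells, and the average over the mice with at least 10 cells was 98.5 ± 29.8 CPM (SD, n = 2 mice). Mesothelial cells held 172 CPM in Control 2 (16 UMIs, in 3 of 3 cells) and 276 CPM in EC-Foxc-DKO 1 (36 UMIs, in 5 of 6 cells), and none were captured from the other mice. Enteric glia had 12.03, 20.1, 47.8 and 0 CPM and blood endothelial cells (BECs) 6.72, 4.46, 18.6 and 0 CPM, from 13 and 10 UMIs in all. In both types the highest value belonged to EC-Foxc-DKO 1. The 0 of EC-Foxc-DKO 2 allows up to 46.0 CPM in glia and 25.5 CPM in BECs, above both Control values. Whether the genotypes overlapped is thus not settled.

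A source of Wnt5a in the epithelium appeared in a single mouse. Of 220 top enterocytes, the absorptive cells of the villus tip, 25 had a UMI of Wnt5a in Control 1 (33 UMIs, 10.4 CPM). In EC-Foxc-DKO 1, 97 top enterocytes with 1510321 UMIs had none, which allows up to 1.99 CPM. Control 2 and EC-Foxc-DKO 2 gave 3 and 1 such cells, without a UMI. The epithelial cells marked by Sprr2a3 and Gml2 also held Wnt5a at low levels, with 2.12, 0, 0.951 and 2.00 CPM. The 0 of Control 2 came from 2 cells, allows up to 178 CPM and is thus uninformative. Among the mice with at least 10 cells, Control 1 was the highest, close to EC-Foxc-DKO 2.

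Wnt4 (chr4:137277489-137299726, plus strand) was highest in mesothelial cells, the outer lining of the gut wall, at 140 CPM in Control 2 and 99.6 CPM in EC-Foxc-DKO 1, from 13 UMIs each. A single cell of Control 2 held 10 of these 26 UMIs. Telocytes/trophocytes had 1 UMI in each of 3 mice. In bottom enterocytes, at the villus base, 9 of 691 cells held 19 UMIs, 7 of them in 1 cell, and the mean level was 0.643 ± 0.480 CPM (SD, n = 4 mice).

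The R-spondins besides Rspo3 were both stromal but did not share their main source. Rspo1 (chr4:124986430-125009099, plus strand) had 90% of its UMIs in the 9 mesothelial cells, at 322.1 CPM in Control 2 (30 UMIs, 3 of 3 cells) and 321.8 CPM in EC-Foxc-DKO 1 (42 UMIs, 5 of 6 cells). In telocytes/trophocytes it was seen in Control 2 alone, at 29.9 CPM (6 UMIs in 5 of 29 cells), whereas 41 cells of EC-Foxc-DKO 1 had none, which allows up to 10.1 CPM. Rspo2 (chr15:43020794-43170826, minus strand) had all of its UMIs in telocytes/trophocytes, 3 in 3 cells of Control 2 (14.9 CPM) and 4 in 4 cells of EC-Foxc-DKO 1 (13.46 CPM). No UMI of Rspo2 was found in any other cell type. With the mitochondrial limit set at 20% instead of 10%, the mesothelial average was 155 CPM for Rspo1 and 58.1 CPM for Wnt4, against 322 and 120 CPM. These averages cover unlike cells. At 20% the mesothelial cluster had 26 cells, with 2 from Control 1, 5 from Control 2 and 19 from EC-Foxc-DKO 1, against the 9 cells above.

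**Figure D2:**
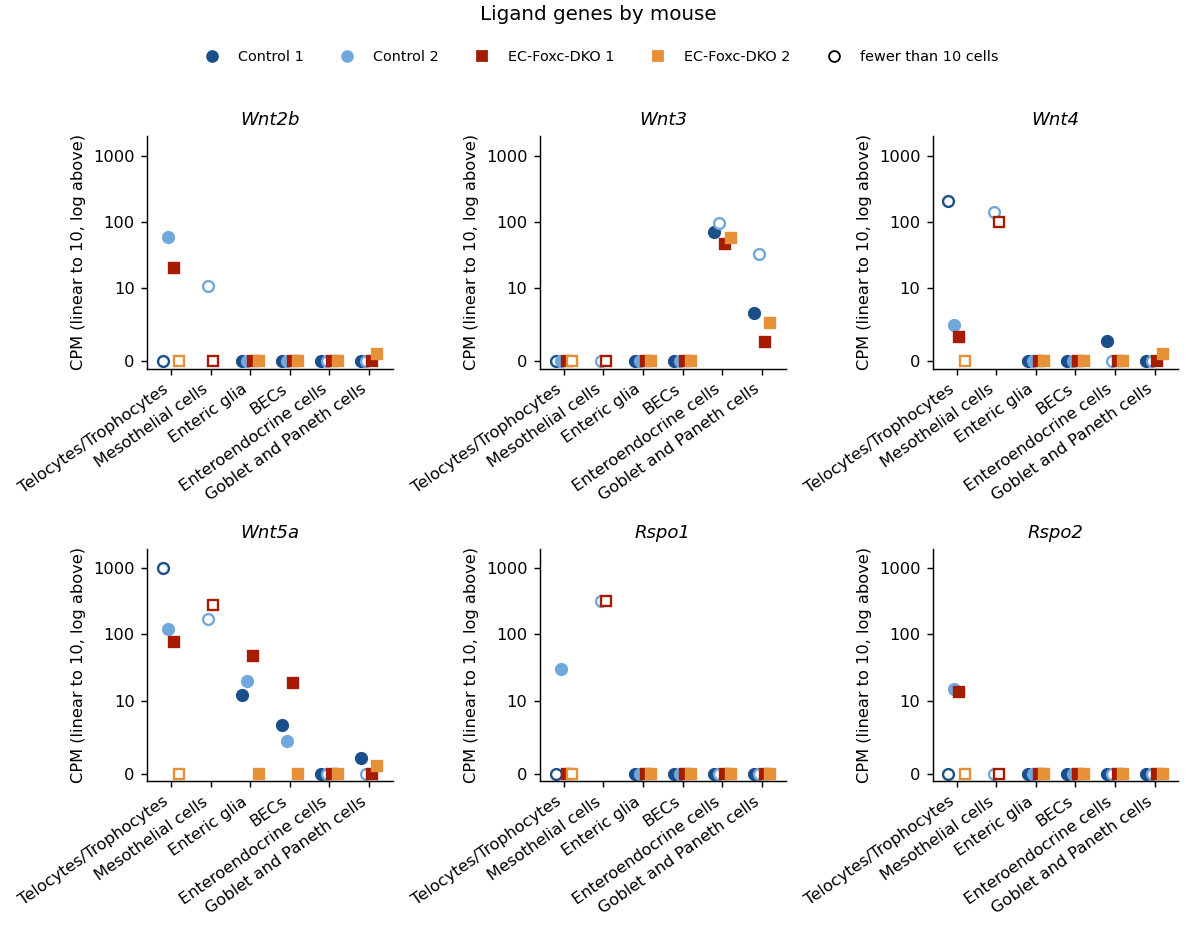
Level of each ligand gene by mouse (vertical axis, CPM, linear up to 10 and logarithmic above) in 6 cell types; circles are Control and squares EC-Foxc-DKO mice, and open symbols are mice with fewer than 10 cells of the type. Wnt3 in enteroendocrine cells is seen in all 4 mice, between 46.9 and 97.1 CPM, while stromal Wnt2b, Rspo1 and Rspo2 rest on Control 2 and EC-Foxc-DKO 1, and no mesothelial cell came from the other mice.

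Telocytes/trophocytes fell into 2 parts on clustering among themselves. The 25 cells of the smaller part carried 4 of 5 markers of trophocytes (Ackr4, Cd81, Grem1 and Pi16). They also carried 1 of 5 markers of Pdgfra-low stromal cells (Cxcl13) and 1 of 7 of telocytes (F3). The 48 of the larger carried 2 of 5 markers of Pdgfra-low stromal cells (Adamdec1 and Ccl11), 2 of 7 of telocytes (Bmp5 and Sox6) and 0 of trophocytes. Wnt2b was found in both, with 9 UMIs in 6 of 25 trophocyte-like cells and 9 UMIs in 7 of the other 48. Wnt5a was present in 12 of 25 trophocyte-like cells (48.0%, 21 UMIs) and in 10 of the other 48 (20.8%, 31 UMIs), pooled over mice. The order of its level differed between the mice with cells in both parts. Control 2 had 149 CPM in trophocyte-like cells and 74.8 in the others, and EC-Foxc-DKO 1 had 48.5 and 85.0. Rspo2 had 5 UMIs in the trophocyte-like cells, 3 of them in Control 2, and 2 in the others, both in EC-Foxc-DKO 1. Each of these 3 genes was thus found in both parts.

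On the receiving side, Lgr4 (chr2:109917647-110014257, plus strand), a receptor for all R-spondins, was present throughout the epithelium and was highest in crypt cells. Crypt cells had 60.5 CPM in Control 1, 46.7 in Control 2, 44.4 in EC-Foxc-DKO 1 and 60.3 in EC-Foxc-DKO 2 (mean 53.0 ± 8.62, SD, n = 4 mice). The mice of both genotypes overlapped, with 1 high and 1 low value in each. A UMI was found in 190 of 217 crypt cells (87.6%, interval 82.4 to 91.6%), cells with a median of 45881 UMIs. Thinned to 1000 UMIs the share was 5.61%, against 0.118% in follicular B cells.

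Along the villus the level of Lgr4 was 34.3 ± 8.34 CPM in bottom, 22.7 ± 7.35 in middle and 11.1 ± 11.4 in top enterocytes (SD, n = 4 mice each). Control 2 and EC-Foxc-DKO 2 gave 3 and 1 top enterocytes. Among mice with at least 10 cells, the range of middle enterocytes, 18.8 to 31.4 CPM, overlapped that of bottom enterocytes and lay above that of top enterocytes, 5.96 to 12.01 CPM. Goblet and Paneth cells had 40.7 ± 18.1 CPM, tuft and M cells 28.0 ± 6.22 and enteroendocrine cells 18.5 ± 3.67. Outside the epithelium, enteric glia stood at 36.1, 40.1, 38.3 and 46.0 CPM in Control 1, Control 2, EC-Foxc-DKO 1 and EC-Foxc-DKO 2. Glia thus showed Lgr4 in every mouse, at a level whose range overlapped that of crypt cells, from 18 UMIs in 16 of 92 cells. In BECs the level was 1.69 ± 2.14 CPM, from 2 UMIs in 171 cells. Telocytes/trophocytes averaged 57.7 ± 97.8 CPM over the 4 mice, but 204 CPM of Control 1 was 1 UMI in 2 cells, and the mice with at least 10 cells averaged 13.4 ± 4.85 CPM.

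The ubiquitin ligases followed different patterns. Rnf43 (chr11:87662722-87735539, plus strand) had 10.95, 17.5, 11.9 and 10.9 CPM in crypt cells of Control 1, Control 2, EC-Foxc-DKO 1 and EC-Foxc-DKO 2 (mean 12.8 ± 3.17, SD, n = 4), with a UMI in 79 of 217 cells. The values of 3 mice lay close together, and that of Control 2 was the highest. Bottom and middle enterocytes had 6.21 ± 1.43 and 11.2 ± 4.73 CPM and goblet and Paneth cells 8.40 CPM. EC-Foxc-DKO 2 gave 8 middle enterocytes, and Control 2 gave 4 goblet and Paneth cells. Over the mice with at least 10 cells, middle enterocytes averaged 9.94 CPM and goblet and Paneth cells 11.2 CPM. Among immune cells, CD8+ T cells had 11.1 ± 7.35 CPM over all 4 mice, from 20 UMIs. Tuft and M cells averaged 14.9 ± 15.4 CPM, of which 38.0 CPM in Control 2 came from 2 UMIs in 1 of 3 cells, and averaged 7.14 CPM over the mice with at least 10 cells. No UMI of Rnf43 was found in BECs, telocytes/trophocytes or mesothelial cells.

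Znrf3 (chr11:5276324-5444847, minus strand) had 4.04, 15.6, 6.29 and 6.97 CPM in crypt cells (mean 8.21 ± 5.05, SD, n = 4), with a UMI in 55 of 217 cells, and 0.527 ± 0.504 CPM in bottom enterocytes. The ranges of crypt cells and bottom enterocytes did not overlap. Immune cells held 34.9% of its UMIs. Plasma cells had the highest level among types with at least 10 cells, at 25.9, 18.7, 4.21 and 24.2 CPM from 23 UMIs, and these cells carried 4 of 4 markers of division (summed level 70.0 to 1055 CPM per mouse), as crypt cells did, whose part in this level was not tested. CD4+ and CD8+ T cells had means of 11.01 and 6.87 CPM. In each of these types the values of the genotypes overlapped. An average of 44.0 CPM in the cells called Macrophage 3 came entirely from 6 UMIs in 1 cell of EC-Foxc-DKO 2.

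**Figure D3:**
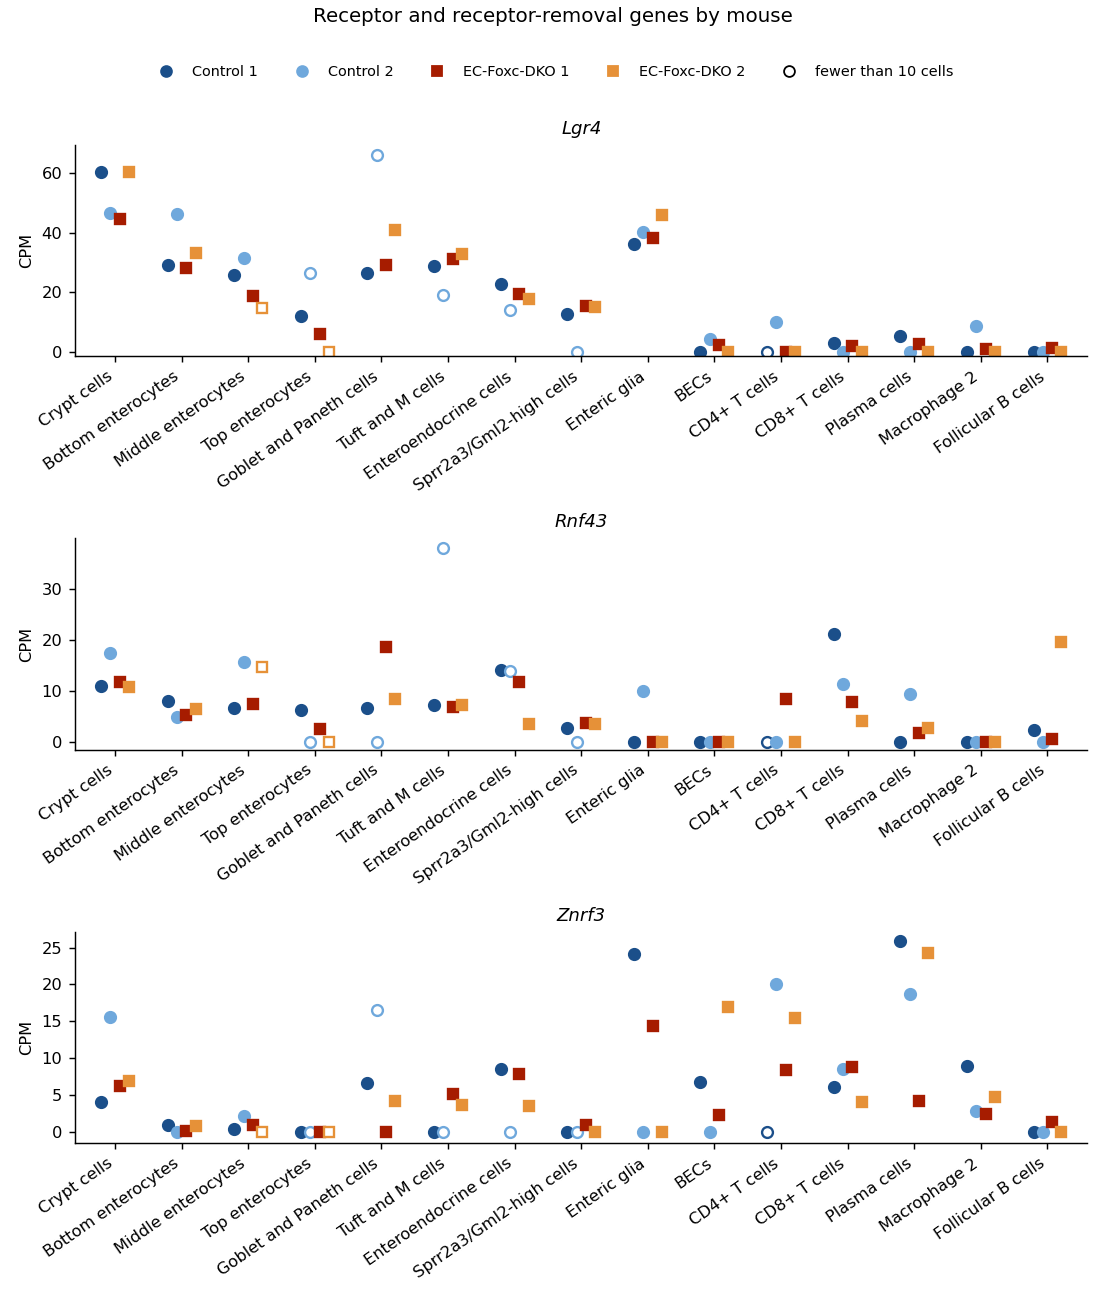
Level of Lgr4, Rnf43 and Znrf3 by mouse (vertical axes, CPM, linear) in 15 cell types; symbols as in the plot of the ligand genes. Lgr4 is highest in crypt cells and enteric glia and lower toward the top enterocytes, and Znrf3 is low in enterocytes but present in crypt, plasma and T cells.

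Crypt cells with a UMI of Lgr5, the stem cell receptor, were set against the other crypt cells of the same mouse, a comparison added after the values were known. There were 3, 5, 8 and 5 such cells in Control 1, Control 2, EC-Foxc-DKO 1 and EC-Foxc-DKO 2, and 17, 10, 30 and 139 others. Znrf3 had 8.09, 32.9, 15.3 and 14.4 CPM in the cells with Lgr5 and 3.36, 3.32, 3.79 and 6.62 CPM in the others. These values rest on 2, 7, 9 and 4 UMIs with Lgr5 and on 5, 1, 8 and 39 UMIs without it. It was higher in 4 of 4 mice (17.7 ± 10.6 against 4.27 ± 1.58 CPM, exact two-sided paired permutation p = 0.125, the smallest that 4 mice can give, adjusted p = 0.375 over 3 genes).

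Rnf43 had 20.2, 28.2, 25.4 and 10.8 CPM in crypt cells with Lgr5 and 9.41, 9.95, 8.05 and 10.9 CPM in those without. It was higher in 3 of 4 mice and level in EC-Foxc-DKO 2 (exact paired permutation p = 0.25, adjusted p = 0.375). Lgr4 averaged 52.8 ± 11.97 and 53.2 ± 8.14 CPM, with a mean difference of -0.386 CPM (exact paired permutation p = 1). It was close to level in Control 1 (60.7 CPM with Lgr5 against 60.5) and Control 2 (47.0 against 46.4). With Lgr5 it was lower in EC-Foxc-DKO 1 (39.0 against 46.0 CPM) and higher in EC-Foxc-DKO 2 (64.8 against 60.1 CPM). No difference could pass the threshold of 0.05 in this design. Cells with Lgr5 were somewhat deeper, with a median of 51766 against 45672.5 UMIs. CPM is scaled by depth, but a UMI of any low gene is more likely in a deeper cell. Thinned to 5000 UMIs, the shares of cells were 11.96% against 4.98% for Rnf43 and 8.68% against 2.68% for Znrf3. The split on Lgr5 was made before thinning, so these shares cannot remove the effect of depth on the split. They also pool the mice, and EC-Foxc-DKO 2 gave 139 of the 196 cells without Lgr5 but 5 of the 21 with it.

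**Figure D4:**
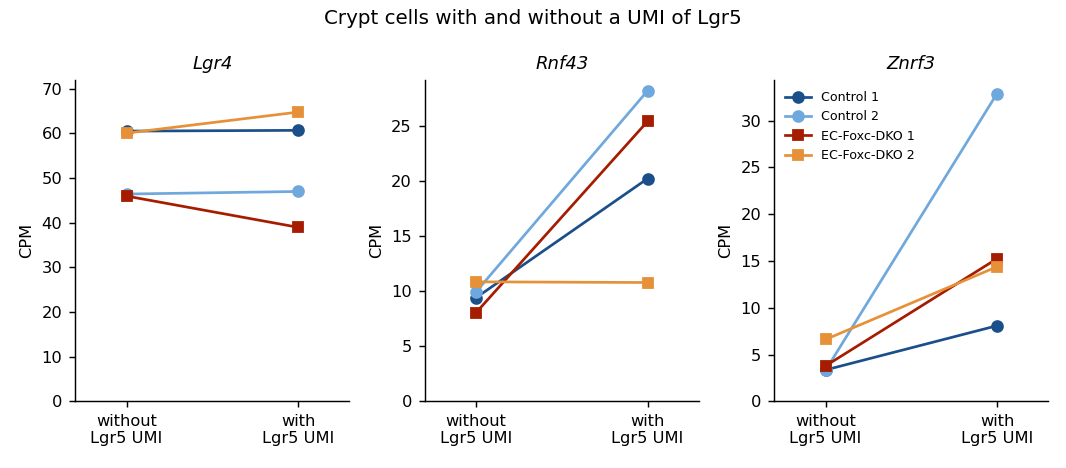
Level of Lgr4, Rnf43 and Znrf3 (vertical axes, CPM) in crypt cells without and with a UMI of Lgr5; each line joins the values of 1 mouse. Cells with Lgr5 are higher in 4 of 4 mice for Znrf3 and in 3 of 4 for Rnf43 and for Lgr4, which averages 53.2 CPM without and 52.8 CPM with Lgr5; the right side has 3 to 8 cells per mouse.

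Receptor and ligase RNA was found in the same crypt cells. Of the 79 crypt cells with Rnf43, 74 also had Lgr4, and of the 55 with Znrf3, 51 did, where the products of the shares give 69.2 and 48.2 cells. Rnf43 and Znrf3 were together in 30 cells, against a product of 20.02. Deep cells hold more of every gene, so these counts are a description. On the sending side, Wnt4 and Wnt5a were together in 8 of 9 mesothelial cells, and Rspo1 with each of them in 7. The product of the shares gives 7.11 cells for each of these pairs.

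For each gene with at least 50 UMIs, the genes with the most similar pattern over the 22 named types were sought (Pearson r of log2(CPM + 1), averages over mice, given as a description of types from the same 4 libraries). The averages took in mice with few cells of a type. They include Wnt3 in CD4+ T cells (34.9 CPM, 2 UMIs in 1 cell) and Znrf3 in Macrophage 3 (6 UMIs in 1 cell). For Wnt5a in telocytes/trophocytes the average was 304 CPM, against 98.5 CPM over mice with at least 10 cells. Rspo1 was closest to Wt1 (r = 0.993), Muc16 (0.935) and Krt14 (0.933), of which Wt1 and Muc16 are known mesothelial genes. Wnt4 was closest to Cpxm1 (0.914), Rspo1 (0.902) and Cybrd1 (0.894), and Wnt5a to Cybrd1 (0.924), C1rb (0.900) and Smtnl2 (0.897). Wnt3 followed Kcnc1 (0.836), Lrrc29 (0.828) and Reg4 (0.797), the last a gene of enteroendocrine cells. Znrf3 followed Prim1 (0.857), Gins1 (0.807) and 4930579G24Rik (0.736), where Prim1 and Gins1 act in DNA replication. Lgr4 followed Fblim1 (0.851), Med25 (0.825) and Rnf152 (0.805), and Rnf43 followed Afmid (0.865), Hsd17b7 (0.847) and Traf4 (0.842).

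Whether endothelial deletion of Foxc1 and Foxc2 went with a change in these genes was asked within each cell type, on UMIs summed per mouse (edgeR quasi-likelihood test, p-values adjusted by Benjamini-Hochberg across the genes of the type that passed edgeR's filter, threshold 0.05). Of the 9 genes, 7 were abundant enough to be tested somewhere, in 21 tests over 8 cell types and the summed epithelial, stromal and immune cells; Wnt2b and Rspo2 were not. None of the 21 tests was called by edgeR, none had an unadjusted p under 0.05 (the lowest was 0.0802), and DESeq2 gave 0 and 0 as well. Among all genes, 0% were called in crypt cells, bottom enterocytes, enteroendocrine cells, goblet and Paneth cells, tuft and M cells and the summed epithelial, stromal and immune cells, 0.0357% in middle enterocytes, 0.326% in the Sprr2a3/Gml2-high cells and 0.432% in telocytes/trophocytes. The p-values measure the spread between these 2 mice per genotype, and an exact test of 2 against 2 single values could not go below 0.333.

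The intervals give a rough range for each difference. They are the estimate ± 1.96 SE, which is narrower than the test itself would give with so few mice. Lgr4 in crypt cells had a log2 fold change (EC-Foxc-DKO over Control) of -0.06 (SE 0.276, 95% interval -0.60 to 0.48), and Lgr4 in bottom enterocytes -0.18 (SE 0.291, -0.75 to 0.39). Rnf43 in crypt cells differed by -0.23 (SE 0.434, -1.08 to 0.62) and Znrf3 by -0.27 (SE 0.717, -1.67 to 1.14). For Lgr4 in crypt cells, a log2 fold change of 1 in either direction lies outside this approximate interval, and for Znrf3 it lies inside.

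For the ligands the intervals were wider. Wnt3 in enteroendocrine cells had higher values in both Control mice (mean 84.0 against 51.9 CPM), and a log2 fold change of -0.59 (SE 0.485, -1.54 to 0.36; edgeR adjusted p = 1.00). Wnt5a in summed epithelial cells differed by -2.04 (SE 0.992, edgeR adjusted p = 1.00). Its 95% interval from the SE, -3.98 to -0.09, ended short of 0 although the test missed the threshold. This was a sum in which Control 1 held 46 of 60 UMIs. Wnt5a differed by -1.74 (SE 1.08) in telocytes/trophocytes, where Control 1 and EC-Foxc-DKO 2 had 2 and 1 cells, and by -0.38 (SE 0.961) in all stromal cells. Rspo1 differed by -0.47 (SE 1.23) in stromal cells, with its UMIs in Control 2 and EC-Foxc-DKO 1 alone. Of the 21 estimates, 17 were below 0 and 4 above. They share mice and cells, since the compartments sum the types, so the count is no evidence of a common direction. Among all genes tested, the median log2 fold change ran from -0.049 in stromal cells to 0.082 in Sprr2a3/Gml2-high cells.

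With no filter on low counts, or without Control 2, 1 test passed: Wnt5a in top enterocytes, with a log2 fold change of -6.60 and -7.02 (edgeR adjusted p = 0.000457 and 0.000163). It rests on the 33 UMIs of Control 1 described above, so it sets Control 1 against EC-Foxc-DKO 1, with 3 and 1 cells from the remaining mice.

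**Figure D5:**
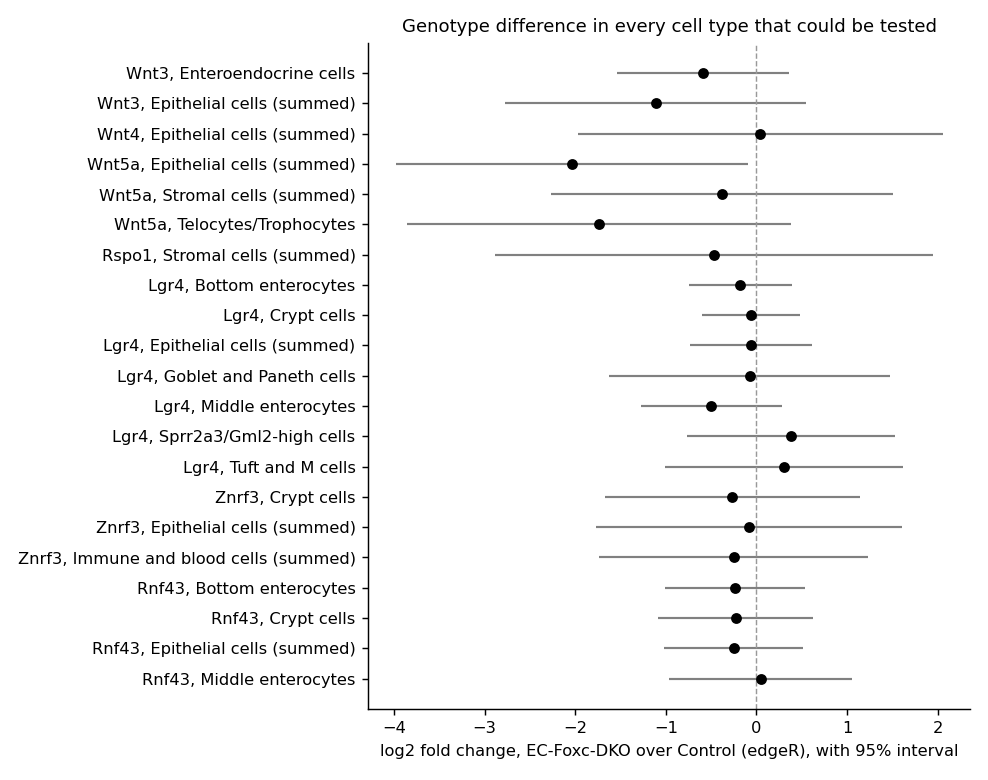
Log2 fold change of EC-Foxc-DKO over Control (edgeR) for every gene and cell type that could be tested. Bars are approximate 95% intervals (± 1.96 SE), narrower than the test would give, and the dashed line marks no difference. The Lgr4 estimates in crypt cells and bottom enterocytes have the narrowest bars, and Rspo1 in stromal cells has the widest.

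The other pathway genes gave the same outcome. In crypt cells 49 of the 74 were detected and 28 tested, with 0 higher, 0 lower, 1 at an unadjusted p under 0.05 (Dvl1, a signal carrier behind Frizzled) and a median log2 fold change of -0.04, against -0.0048 for all genes. In stromal cells 54 were detected and 24 tested, with 0 higher, 0 lower, 0 under an unadjusted 0.05 and a median of -0.11 against -0.05 for all genes. DESeq2 and edgeR called none of them. Among β-catenin target genes of crypt cells, Ccnd1, which drives cell division, differed by 0.29 (SE 0.239) and Sox9, a factor of crypt cells, by -0.64 (SE 0.588). The Wnt receptor genes Fzd5 and Ryk differed by -0.13 (SE 0.267) and -0.19 (SE 0.295), and Lgr5 by -1.77 (SE 1.45) on 40.8 CPM in Control 2 and at most 10.4 CPM elsewhere. In stromal cells, Wls, which carries Wnt proteins to the cell surface, differed by -0.06 (SE 0.505) and the Wnt inhibitor gene Sfrp1 by -0.64 (SE 0.661).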

How the data were processed

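The values deposited by the authors are raw UMI counts per gene and barcode, 1 matrix per mouse, with a table joining the libraries of which only the gene list was read. Per the labels the authors used Cell Ranger 4.0.0 and mm10; 10x Genomics 3′ libraries were sequenced, and no normalization was applied to the counts. Total counts were 15557181 to 72046346 per mouse, which sets how low a level can be seen.

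Cells were removed where UMIs of 13 mitochondrial genes were over 10% of the UMIs of the 18407 genes in the joined table. As a share of all UMIs, this limit would have kept 1539, 386, 2838 and 1113 cells of Control 1, Control 2, EC-Foxc-DKO 1 and EC-Foxc-DKO 2. The rest were clustered with scanpy 1.11.5 and leidenalg 0.10.2 (2923 variable genes, Wnt4 and Wnt5a among them, 15 components, resolution 0.5, seed 0). This gave 25 clusters, named from at least 3 marker genes. Doublets were kept; removing the 292 highest Scrublet scores was an alternative. Levels are CPM per mouse and type, with exact binomial intervals (scipy 1.17.1). Sums per mouse and type were tested with edgeR 4.0.16 in R 4.3.3 (filterByExpr, TMM) and DESeq2 1.42.0. The code was tested on simulated data. Positions are from GENCODE on GRCm38.

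The 9 genes and all lists were chosen with earlier results of these data known. Named were the 9 genes, the 3 most similar genes of each with at least 50 UMIs, list genes called, and otherwise the 2 of each list with the highest mean CPM; other genes were named after their values were seen. Alternatives covered normalization, filters, doublets, a 20% mitochondrial limit, resolution, variable genes without the pathway, thinning, replicate blocks and leaving out each mouse.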

Additional observations from a re-analysis of the deposited data

How the results depend on the processing

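Beyond each library's depth and the few stromal cells, what limits these results is the number of mice, 2 per genotype. Of 173 refits of the genotype differences other than those leaving out a named mouse, 157 kept the direction and 16 turned it, none of them past the threshold. Values that turned were, with doublet scores removed, 0.10 for Wnt5a in stromal cells, 0.011 for Lgr4 in epithelial cells and -0.070 for Rnf43 in middle enterocytes. With the 20% mitochondrial limit they were -0.22 for Wnt4, 0.017 for Lgr4 and 0.099 for Znrf3 in epithelial cells, -0.076 for Lgr4 in tuft and M cells and -0.19 for Rnf43 in middle enterocytes. With mice of at least 10 cells, which drops Control 2 and EC-Foxc-DKO 2 respectively, they were 0.52 for Lgr4 in goblet and Paneth cells and -0.074 for Rnf43 in middle enterocytes, with no filter 0.060 for Lgr4 in goblet and Paneth cells, and with DESeq2 and library sizes alone -0.045 and -0.023 for Rnf43 in middle enterocytes. The cause was not tested.

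The replicate block, which pairs mice by their number, turned Rspo1 in stromal cells to 0.041, Lgr4 in goblet and Paneth cells to 0.0032 and Znrf3 in epithelial cells to 0.040. The labels name no shared litter or day, and deviations of same-numbered mice correlated at -0.332 to 0.454 over 21 types and compartments, under -0.1 in 7 and over 0.1 in 5, goblet and Paneth, tuft and M, enteroendocrine and summed epithelial cells among them. The block called 14 genes in enteroendocrine, 4 in epithelial, 3 in bottom enterocyte, 7 in goblet and Paneth, 13 in middle enterocyte, 5 in tuft and M, 0 in Sprr2a3/Gml2-high cells and 0 in telocytes/trophocytes. The crossed pairing, added after seeing the data, called 63 in bottom enterocytes and 3 in crypt cells. No block called any of the 9 genes.

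Without the filter on low counts, the counts of called genes were 21 in enteroendocrine, 84 in epithelial, 13 in stromal, 151 in bottom enterocyte, 99 in crypt, 3 in goblet and Paneth, 48 in middle enterocyte, 67 in Sprr2a3/Gml2-high, 17 in tuft and M and 134 in immune cells, 0 in telocytes/trophocytes, and 1 among the 9 genes. DESeq2 called 7 in epithelial, 8 in bottom enterocyte, 4 in crypt and 9 in immune cells, and 0 in telocytes/trophocytes, middle enterocytes and Sprr2a3/Gml2-high cells. In those last 3 types, with 8, 3 and 23 calls as reported, library sizes alone gave 3, 7 and 35 and the 20% limit 1, 21 and 50. Removing doublet scores left 0 in telocytes/trophocytes. Mice with at least 10 cells gave 25 in middle enterocytes, 9 in Sprr2a3/Gml2-high and 10 in enteroendocrine cells, and middle enterocytes had 14 at resolution 1.0 and 20 with variable genes that left out the pathway.

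Leaving out 1 mouse turned 20 of 76 directions. The log2 ranges were -0.55 to 0.11 for Lgr4 in bottom enterocytes, -0.25 to 0.16 in crypt, -0.35 to 0.19 in epithelial and -0.73 to 0.52 in goblet and Paneth cells. For Rnf43 they were -0.50 to 0.33 in bottom enterocytes, -0.64 to 0.073 in crypt cells and -0.074 to 0.31 in middle enterocytes, and for Znrf3 -1.23 to 0.75 in crypt, -1.03 to 1.11 in epithelial and -1.36 to 0.61 in immune cells. For the ligands they were -6.41 to 0.017 for Rspo1 and -7.02 to 0.55 for Wnt5a in stromal cells, and -0.35 to 5.93 for Wnt4 in epithelial cells. Called genes ranged from 0 to 1116 in bottom enterocytes (1116 without EC-Foxc-DKO 1), 3 to 34 in crypt, 10 to 42 in enteroendocrine, 0 to 6 in epithelial, 0 to 24 in goblet and Paneth, 0 to 5 in immune, 0 to 166 in middle enterocyte, 1 to 236 in Sprr2a3/Gml2-high, 0 to 39 in stromal and 0 to 192 in tuft and M cells, 0 to 3 in telocytes/trophocytes, and 0 to 1 among the 9 genes. Where an arm kept 1 mouse, it was assumed to vary like the other genotype.

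Levels that moved by more than the spread between mice were, with the 20% limit, 58.1 CPM for Wnt4 and 155 CPM for Rspo1 in mesothelial cells, and, with doublet scores removed, 338 CPM for Rspo1 there. The 20% limit gave 26 mesothelial cells instead of 9. Weighting compartments by mean CPM gave epithelial shares of 89.6% (Wnt3), 2.87% (Wnt4), 42.8% (Lgr4), 8.90% (Znrf3) and 34.1% (Rnf43). Thinning to 2000 UMIs gave 10.9% of crypt cells with Lgr4.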

Other observations

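The pathway lists held further genes, described here without a test because cell types are clusters of the same cells. Wnt2, a ligand that acts through β-catenin, had all 15 of its UMIs in lymphatic endothelial cells, at 45.9 CPM in Control 1, 191 in Control 2 and 55.6 in EC-Foxc-DKO 1, in 8 of 18 cells. No such cell was kept from EC-Foxc-DKO 2, and the 171 BECs had no UMI. Wif1, a secreted Wnt inhibitor, had 92.6% of its UMIs in enteroendocrine cells, at 65.2, 41.6, 70.3 and 21.4 CPM in Control 1, Control 2, EC-Foxc-DKO 1 and EC-Foxc-DKO 2, and the 4 UMIs of Rspo4 were in the same cells. These are the cells of the study's first enteroendocrine list, and they held most UMIs of both Wnt3 and Wif1.

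Enteric glia held 75.2% of the UMIs of Sfrp5, another secreted inhibitor, and the highest level of Wnt6, at 36.1, 30.1, 19.1 and 30.7 CPM, although middle enterocytes held 44.0% of its UMIs at a lower level. Sfrp1 and Dkk3, also secreted inhibitors, had 77.1% and 61.5% of their UMIs in telocytes/trophocytes, the source of Wnt2b and Rspo2. Nkd1, an inhibitor inside the receiving cell, had 67.4% in myocytes/pericytes. Among the receptors, Fzd5 stood at 89.4, 83.6, 66.6 and 92.7 CPM in crypt cells and at a mean of 81.4 CPM in bottom enterocytes, and Fzd4 at 208, 152, 144 and 255 CPM in BECs, with 166 CPM in myocytes/pericytes. The mice of both genotypes overlapped in Wif1, Wnt6, Fzd5 and Fzd4.

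Enteroendocrine cells were split by their hormone genes, a choice made after the values were seen. Pooled over mice, Wnt3 stood at 68.4 CPM in the 47 cells with Tph1, the enzyme of serotonin synthesis, and at 56.3 CPM in the 30 without it. The 27 cells with Cck had 42.9 CPM and the 50 without it 79.0 CPM. Wnt3 was thus present on both sides of these splits, chosen from several, and no difference was tested.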
